A study of Rattus norvegicus with 28 samples.

Results

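Interleukins, tumour necrosis factor (TNF) and the STAT3 pathway are among the first inflammatory signals of injured brain, and they were followed here in rat hippocampus 24 h after traumatic brain injury (TBI). The description covers 10 genes: the ligands Il1b, Il18, Tnf, Il6 and Lif, the decoy ligand Il1rn, the receptors Il1r1 and Tnfrsf1a, the transcription factor Stat3 and its feedback inhibitor Socs3. Members were taken by gene symbol, as every non-control array probe whose transcript accession maps to that symbol, out of 15637 named genes on the array. A probe was matched for 9 of the 10, each with 1 probe. The gene expression arrays held 2 uninjured control rats (Sham), 3 rats with untreated fluid percussion injury (TBI) and 3 rats in each of 3 groups given an antidepressant by injection after the same injury (TBI+Imipramine, TBI+Prozac, TBI+Zoloft). All were adult male Sprague-Dawley rats, each array was a separate rat, and the fluid percussion injury was labelled severe. The methods state that each antidepressant was given at 10 mg/kg, 1 h after injury, and that rats without an antidepressant received vehicle. Imipramine is a tricyclic antidepressant, and Prozac (fluoxetine) and Zoloft (sertraline) are selective serotonin reuptake inhibitors.

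As background, interleukin-1β is made as an inactive precursor, released after cleavage by the inflammasome, and recognised by the receptor encoded by Il1r1. The product of Il1rn occupies the same receptor without activating it. TNF signals through the receptor encoded by Tnfrsf1a towards the NF-kB transcription factors, which switch on cytokine and chemokine genes. Interleukin-6 and leukemia inhibitory factor, the product of Lif, share the gp130 receptor chain (Il6st) and act through JAK kinases on STAT3, which in turn induces Socs3, a brake on the same receptor chain. In injured brain, microglia, astrocytes and blood-derived leukocytes are known sources of these cytokines.

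The upstream sequence of the members is given first, since NF-kB and STAT sites are the textbook control elements of these genes. RefSeq promoter windows (250 bases before to 50 after the annotated start, GRCr8 build) were found for 9 of the 10 members, all but Lif. The STAT core TTCNNNGAA, which reads the same on both strands, was present in 8.87% of all 33469 windows and in 0 of the 9. The NF-kB consensus was matched on either strand in 7.51% of all windows and in 3 of the 9, Il6, Il1r1 and Socs3. The Il6 match lay from base -68 to base -59 relative to the start, the Il1r1 match from -135 to -126 on the reverse strand, and the Socs3 match, which reads on both strands, from -161 to -152. The 100 bases directly before the start are shown for Il6, the member with a match close to its start, with the match in capitals, and for Il1b and Il1rn, the interleukin-1 ligand and antagonist genes that were called against Sham in every injured group below.
Il6, chr4:5894576-5894675, minus strand: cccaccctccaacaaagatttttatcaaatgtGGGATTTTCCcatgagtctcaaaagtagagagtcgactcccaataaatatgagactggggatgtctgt
Il1b, chr3:137036582-137036681, minus strand: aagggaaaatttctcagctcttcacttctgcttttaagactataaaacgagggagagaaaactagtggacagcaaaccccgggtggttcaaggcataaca
Il1rn, chr3:27520222-27520321, plus strand: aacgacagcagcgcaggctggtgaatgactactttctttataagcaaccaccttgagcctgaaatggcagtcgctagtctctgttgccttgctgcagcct
A match is a description of letters, and the lack of one says only that these letters are not in this window.

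Levels are given as the log2 of a probe's signal divided by its array's 75th percentile of detected probes, so that 0 is that percentile and each step down by 1 is a halving. They can be compared between rats for a gene, but not between genes. Between 14676 and 18196 probes were above background on an array, fewest in TBI replicate 1 and most in TBI+Imipramine replicate 2. Tested were the 17322 of 30367 probes that rose above background on the whole of 1 group or more. Of the 9 members with a probe, 7 were tested. Tnf, Tnfrsf1a, Il18 and Stat3 were above background on all 14 arrays. Il1b, Il1rn and Socs3 were above background on neither Sham array and entered the test only through injured groups. Il6 and Lif were above background on none of the 14 arrays and have no tested difference.

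The arrays came from 3 slides. Both Sham arrays were on slide 1, which held no injured rat and was scanned on another day, so that slide and injury cannot be told apart in any comparison with Sham. The 3 TBI arrays shared slide 2 with TBI+Prozac replicate 1, and the other 8 treated arrays were on slide 3. Of 6 genes that mark hippocampus, 5 were above background on all arrays and Prox1, which marks granule cells of the dentate gyrus, on none. Summed levels of 8 markers of the choroid plexus, a tissue next to the hippocampus, were uneven: 69.8 to 107 on 5 arrays (TBI+Imipramine replicates 1 and 2, TBI+Prozac replicate 1, TBI+Zoloft replicates 1 and 2), 29.3 and 28.8 on Sham replicate 2 and TBI replicate 3, and 0.219 to 1.94 on the other 7. In whole tissue, fewer cells of a type and less RNA per cell cannot be told apart.

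**Figure D1:**
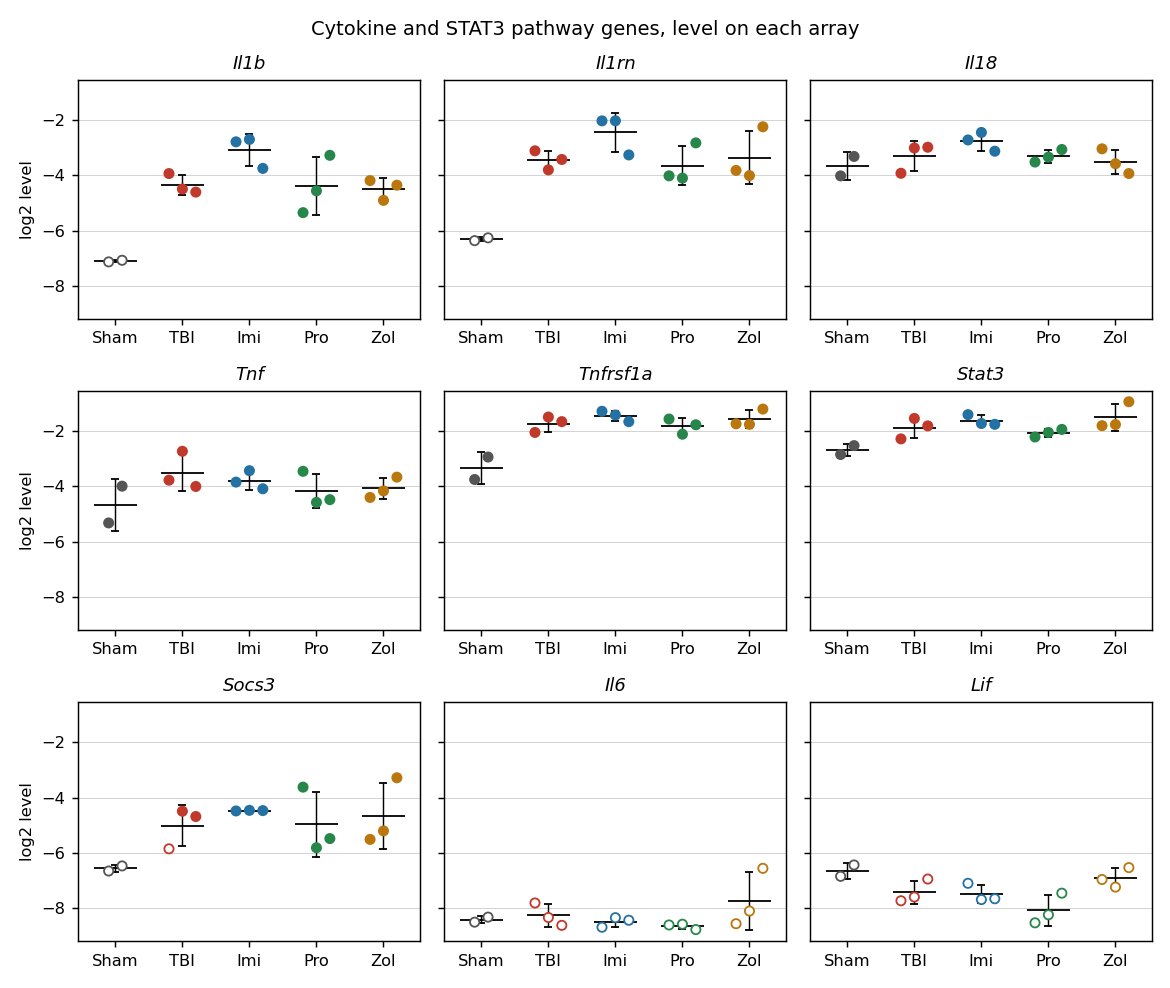
Level of each member (log2 of signal over the array's 75th percentile, y axis) on every array of the 5 groups (Imi, TBI+Imipramine; Pro, TBI+Prozac; Zol, TBI+Zoloft). Filled points were above background and open points were not, lines and bars are mean and SD (n = 2 for Sham, 3 otherwise). All 12 injured rats lie above both Sham rats for Il1b, Il1rn, Tnfrsf1a, Stat3 and Socs3, and every point is open for Il6 and Lif.

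The question of the first comparison was which members differ between injured and uninjured hippocampus. Il1b, Il1rn and Tnfrsf1a were higher in TBI than in Sham: Il1b at least 4.03-fold, Il1rn at least 7.11-fold and Tnfrsf1a 3.06-fold. The same 3 genes were higher than Sham in each of the 3 treated groups. Stat3 and Socs3 lay above both Sham rats in every injured rat without passing the test in TBI vs. Sham. Il18 and Tnf overlapped Sham in TBI, and Il6 and Lif were not measurable.

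Il1b encodes interleukin-1β, the main secreted agonist of the interleukin-1 receptor. Its level (probe A_43_P14911) was -7.13 and -7.07 in the 2 Sham rats and -3.94, -4.50 and -4.61 in the 3 TBI rats. It was -2.79, -2.70 and -3.75 with TBI+Imipramine, -5.35, -4.56 and -3.28 with TBI+Prozac, and -4.19, -4.91 and -4.36 with TBI+Zoloft. All injured rats were far above Sham, TBI+Imipramine replicates 1 and 2 were the highest, and the treated rats otherwise lay around the TBI rats. The means were -7.10 ± 0.041 (SD, n = 2) for Sham, -4.35 ± 0.360 for TBI, -3.08 ± 0.582 for TBI+Imipramine, -4.40 ± 1.05 for TBI+Prozac and -4.48 ± 0.375 for TBI+Zoloft (n = 3 each). Because Sham was not well above background, folds against it are lower bounds, the injured mean over the Sham arrays' lowest signal well above background. TBI was at least 4.03-fold above Sham, with an adjusted p of 0.0033 in limma's moderated fit over all probes, a p that rests on Sham signals near background. The bounds in the treated groups were at least 9.70-fold for TBI+Imipramine, 3.89-fold for TBI+Prozac and 3.66-fold for TBI+Zoloft, with limma adjusted p of 0.00028, 0.0051 and 0.011. This probe had 8 to 10 spots on each array. With normexp background correction TBI (adjusted p = 0.11), TBI+Prozac (0.15) and TBI+Zoloft (0.17) missed the threshold against Sham, and TBI+Imipramine passed it (0.0021). TBI+Zoloft vs. Sham also missed it without Sham replicate 1 (adjusted p = 0.079) or 2 (0.058).

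Il1rn encodes the interleukin-1 receptor antagonist, which blocks the receptor that interleukin-1β activates. Its level (probe A_44_P462661) was -6.36 and -6.26 in Sham and -3.12, -3.80 and -3.43 in TBI. With TBI+Imipramine it was -2.03, -2.03 and -3.26, with TBI+Prozac -4.02, -4.10 and -2.83, and with TBI+Zoloft -3.82, -4.01 and -2.25. As with Il1b, no injured rat reached down to Sham and TBI+Imipramine replicates 1 and 2 were the highest. Sham was again not above background, and TBI was at least 7.11-fold above it (limma adjusted p = 0.0045). The treated groups stood at least 14.3-fold (TBI+Imipramine), 6.19-fold (TBI+Prozac) and 7.56-fold (TBI+Zoloft) above Sham, with limma adjusted p of 0.00061, 0.0084 and 0.0097. Without Sham replicate 1, TBI+Prozac and TBI+Zoloft missed the threshold (adjusted p = 0.062 and 0.076), as did TBI+Zoloft without Sham replicate 2 (0.052). With normexp TBI (adjusted p = 0.043) and TBI+Imipramine (0.0029) passed against Sham, and TBI+Prozac (0.11) and TBI+Zoloft (0.061) did not.

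Tnfrsf1a, the gene of the main signalling receptor for TNF, had a measured level on every array. It was -3.75 and -2.94 in Sham and -2.05, -1.49 and -1.66 in TBI (probe A_43_P15259). With TBI+Imipramine it was -1.28, -1.42 and -1.66, with TBI+Prozac -1.56, -2.11 and -1.77, and with TBI+Zoloft -1.74, -1.76 and -1.20. The 12 injured rats fell within a narrow band from -2.11 to -1.20, and the 2 Sham rats lay below it. TBI minus Sham was 1.61 ± 0.270 (SE, limma adjusted p = 0.0023), and the treated groups, in the same order as above, differed from Sham by 1.89, 1.53 and 1.78 (limma adjusted p = 0.00068, 0.0044 and 0.0034). Without Sham replicate 1, TBI+Prozac (1.12, adjusted p = 0.057) and TBI+Zoloft (1.37, 0.050, just over it) missed the threshold. Without the 5 arrays high in choroid plexus markers, which leaves 1 TBI+Imipramine rat, its difference from Sham was 1.69 with an adjusted p of 0.073.

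**Figure D2:**
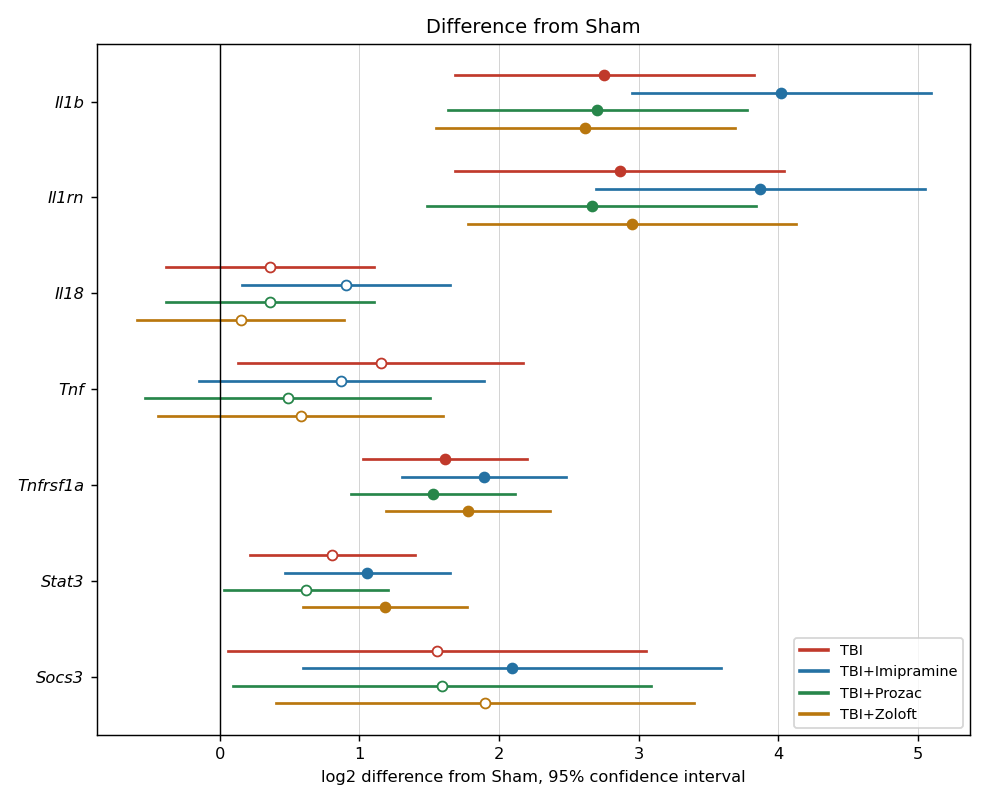
Log2 difference of each injured group from Sham (x axis, limma estimate with its 95% confidence interval) for the 7 tested members (y axis). Filled points passed an adjusted p of 0.05 and open points did not: Il1b, Il1rn and Tnfrsf1a are filled in all 4 groups, Stat3 in TBI+Imipramine and TBI+Zoloft, and Socs3 in TBI+Imipramine. Il1b, Il1rn and Socs3 were not above background in Sham, so their plotted differences rest on Sham signals near background.

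Stat3, the transcription factor downstream of gp130 receptors, lay higher in injured than in Sham rats by smaller differences. Its level was -2.85 and -2.52 in Sham and -2.28, -1.54 and -1.81 in TBI (probe A_44_P787936, 1 spot on each array). With TBI+Imipramine it was -1.40, -1.72 and -1.75, with TBI+Prozac -2.21, -2.05 and -1.94, and with TBI+Zoloft -1.80, -1.76 and -0.94. Every injured rat was above both Sham rats, with TBI+Zoloft replicate 3 the highest. TBI minus Sham was 0.81 ± 0.271 (SE) with a limma adjusted p of 0.062, over the threshold. TBI+Imipramine (1.06, limma adjusted p = 0.015) and TBI+Zoloft (1.18, adjusted p = 0.025) passed it against Sham, and TBI+Prozac (0.62, adjusted p = 0.15) did not. The calls for Stat3 turned on the setting and on single libraries. TBI vs. Sham passed in 7 of 26 alternatives, among them without TBI replicate 1 (1.01, adjusted p = 0.028) and without TBI+Zoloft replicate 3 (adjusted p = 0.020). TBI+Imipramine vs. Sham lost its call without Sham replicate 1 (0.90, adjusted p = 0.12) or TBI+Imipramine replicate 1 (0.95, adjusted p = 0.058), and TBI+Zoloft vs. Sham without Sham replicate 1 (1.02, adjusted p = 0.17) or Sham replicate 2 (1.35, adjusted p = 0.075). Without the 5 arrays high in choroid plexus markers TBI+Imipramine, then 1 rat, missed it (0.93, adjusted p = 0.21).

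Socs3, whose product inhibits JAK kinases on gp130 receptors, was not above background in Sham. Its level was -6.66 and -6.47 in Sham and -5.85, -4.49 and -4.69 in TBI (probe A_64_P125883), and TBI replicate 1 was also not above background. With TBI+Imipramine it was -4.48, -4.46 and -4.47, with TBI+Prozac -3.62, -5.82 and -5.48, and with TBI+Zoloft -5.51, -5.21 and -3.29. The 3 TBI+Imipramine rats were almost equal (SD 0.011), while TBI+Prozac and TBI+Zoloft each held 1 rat well above the other two (SD 1.18 and 1.21). The TBI mean was 2.54-fold over the Sham arrays' lowest signal well above background, which is no lower bound, since TBI replicate 1 was not above background. TBI vs. Sham had a limma adjusted p of 0.15, which missed the threshold. TBI+Imipramine vs. Sham passed it, at least 3.69-fold with an adjusted p of 0.046, but in only 9 of 25 alternatives. That call was lost without Sham replicate 1 (adjusted p = 0.17) or 2 (0.15), and without any TBI+Imipramine replicate (0.078 to 0.11). It was also lost without TBI replicate 2 or 3 (0.053 each), TBI+Prozac replicate 3 (0.053) or TBI+Zoloft replicate 2 (0.052). TBI+Prozac was at least 2.61-fold and TBI+Zoloft at least 3.23-fold above Sham, with adjusted p of 0.14 and 0.13. Without the 5 arrays high in choroid plexus markers TBI passed against Sham (adjusted p = 0.038) and TBI+Imipramine, then 1 rat, did not (0.091). TBI+Zoloft was then left with replicate 3 alone, the highest Socs3 rat, and its value there is not read.

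Il18 encodes interleukin-18, which like interleukin-1β is cleaved by the inflammasome. Its level (probe A_44_P161233) ran from -4.02 to -3.32 in Sham and from -3.94 to -2.45 over the 12 injured rats, of which 7 were above both Sham rats. TBI minus Sham was 0.36 with a 95% confidence interval of -0.38 to 1.11 (limma adjusted p = 0.52). The interval includes both no difference and a doubling. Only TBI+Imipramine did not overlap Sham (0.90, limma adjusted p = 0.075), as for 42% of all probes, and TBI+Prozac and TBI+Zoloft differed from Sham by 0.36 and 0.15.

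Tnf, the ligand of the receptor encoded by Tnfrsf1a, was above background in all rats. Its level (probe A_64_P034414) was -5.32 and -3.99 in Sham and -3.77, -2.73 and -4.0 in TBI. The 2 Sham rats were far apart, and of the injured rats 6 of 12 were above both. TBI minus Sham was 1.15 (95% confidence interval 0.13 to 2.17, limma adjusted p = 0.12), and the treated groups differed from Sham by 0.87, 0.49 and 0.58 with adjusted p of 0.20 to 0.53. The receptor gene thus passed the test against Sham where the ligand gene did not, and the difference between the ligand and receptor genes was not tested.

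Il6, the ligand that opens STAT3 signalling through gp130, was near the lower end of what the arrays measure. The signal (probe A_44_P371339, 6 to 10 spots on each array) ran from -8.77 to -6.56 over the 14 arrays. Lif (probe A_64_P115666) ran from -8.53 to -6.44, and no order can be read from signals below background. Il1r1 is named here without a value, since no probe was matched to it.

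These counts are read against the whole array. In TBI vs. Sham 16.6% of tested probes were called in either direction and 8.3% were called higher in TBI. The called members were 3 of the 10, in a set where 3 members had to differ between groups to enter the test at all. The shares of probes called higher against Sham were 19.8% for TBI+Imipramine, 11.7% for TBI+Prozac and 4.16% for TBI+Zoloft, beside 5, 3 and 4 called members. Groups without overlap were common: 20.9% of probes lay wholly above Sham in TBI, and 12.1% had all 12 injured rats above both Sham rats, beside 5 of the 9 members with a probe in each case. These shares are of tested probes, while the 9 include Il6 and Lif, which were not tested. Among the 5, Il1b, Il1rn and Socs3 entered the test only through injured groups, so their lack of overlap partly follows from the filter.

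The next comparison asks whether an antidepressant given after injury changed these levels relative to injury alone. No member passed the test in any of the 3 treated groups against TBI. At an unadjusted p under 0.05, limma gave 1 member (Il1b) for TBI+Imipramine, 0 for TBI+Prozac and 0 for TBI+Zoloft. The same unadjusted p was met by 3417, 1742 and 2635 of the 17322 tested probes. After adjustment 2.85%, 0.00577% and 1.38% of these probes were called. Over all probes the median difference from TBI was 0.20 with TBI+Imipramine, 0.15 with TBI+Prozac and 0.01 with TBI+Zoloft. Differences of any size carry this shift of the array.

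Il1b was 1.27 higher with TBI+Imipramine than in TBI (95% confidence interval 0.31 to 2.22, unadjusted p = 0.014 and adjusted p = 0.15 by limma). Over 26 alternatives this difference ran from -0.16 to 1.60 and passed in 0. The lowest value, with the sign reversed, came with slide as a block, which rests on the 1 TBI+Prozac rat of slide 2. The 3 TBI+Imipramine rats were all above the 3 TBI rats, as for 25.2% of all probes in that comparison. With TBI+Prozac the difference was -0.05 (-1.01 to 0.91) and with TBI+Zoloft -0.14 (-1.10 to 0.82), intervals that reach a halving and almost a doubling. Without the 5 arrays high in choroid plexus markers, the 1 TBI+Imipramine rat left differed from TBI by 0.60 in Il1b. Il1rn, the antagonist, differed by 1.01 with TBI+Imipramine (-0.05 to 2.06, adjusted p = 0.27), by -0.20 with TBI+Prozac and by 0.09 with TBI+Zoloft, and in each case the groups overlapped.

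**Figure D3:**
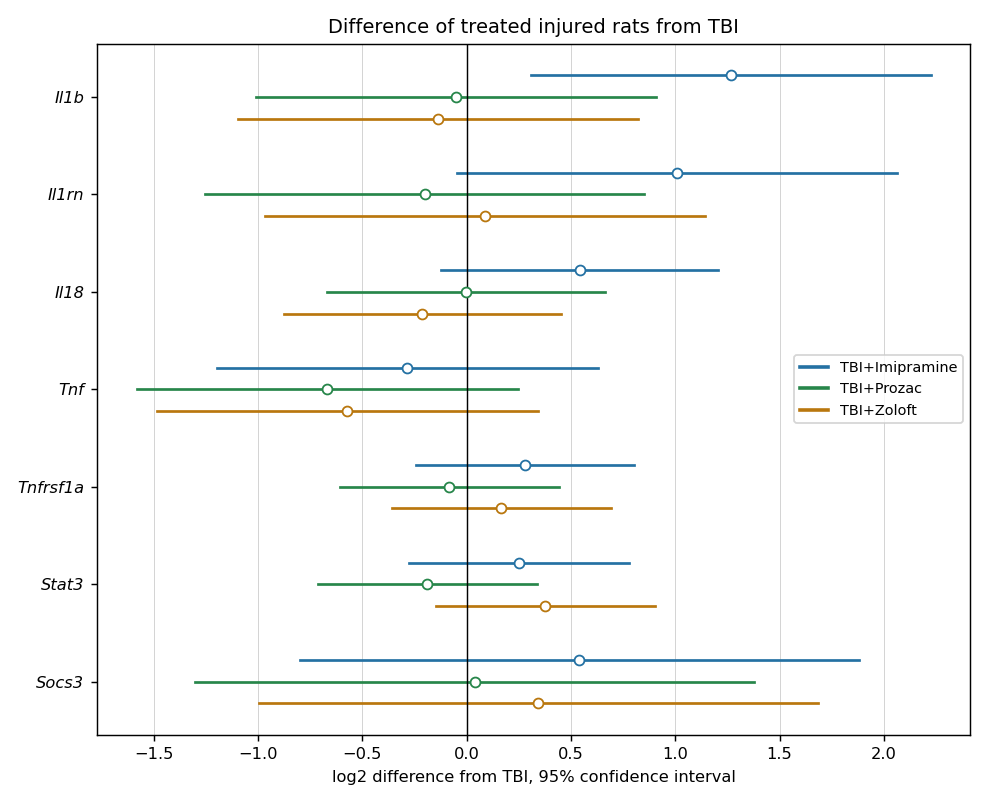
Log2 difference of each treated group from TBI (x axis, limma estimate with its 95% confidence interval) for the 7 tested members (y axis). All points are open because none passed an adjusted p of 0.05, and the interval farthest from 0 is that of Il1b with TBI+Imipramine, 0.31 to 2.22.

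The receptor and signalling genes were likewise not called against TBI. Tnfrsf1a differed by 0.28, -0.08 and 0.17 for imipramine, Prozac and Zoloft, with intervals that together ran from -0.61 to 0.80. Stat3 differed by 0.25, -0.19 and 0.38, and its intervals ran from -0.71 to 0.90. Tnf was lower than TBI by point estimate in all 3 treated groups, at -0.29, -0.67 and -0.57, with adjusted p of 0.72, 0.62 and 0.57. Il18 differed by 0.54, -0.00 and -0.21 and Socs3 by 0.54, 0.04 and 0.34, all with overlap except Socs3 with TBI+Imipramine, whose 3 rats lay just above the highest TBI rat. Slide 3 held no TBI rat, so TBI+Imipramine and TBI+Zoloft have no within-slide comparison with TBI. On slide 2 TBI+Prozac replicate 1 lay beside the 3 TBI rats and differed from them by -1.0 in Il1b, -0.57 in Il1rn and 1.39 in Socs3, and from 1 rat the lack of a call there says nothing of a lack of change.

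Among the drugs, 3 pairs of groups were compared at the same dose and time for 7 members, with p adjusted over all probes, and no member passed. TBI+Imipramine minus TBI+Zoloft was 1.40 for Il1b (95% confidence interval 0.45 to 2.36, limma adjusted p = 0.079), where the groups did not overlap (nor for 26.6% of all probes), and 0.75 for Il18 (0.09 to 1.42, adjusted p = 0.16), where they did. Without the 5 arrays high in choroid plexus markers, which leaves 1 rat in each of these groups, the Il1b difference was 0.61. It passed without TBI+Imipramine replicate 3 (1.74, adjusted p = 0.046) and without TBI+Prozac replicate 3 (adjusted p = 0.039). TBI+Imipramine minus TBI+Prozac was 1.32 for Il1b and 1.21 for Il1rn, with unadjusted p of 0.011 and 0.028 and adjusted p of 0.72 for both. TBI+Prozac minus TBI+Zoloft was -0.57 for Stat3 (-1.09 to -0.04, adjusted p = 0.20), without overlap, as for 4.37% of all probes. At an unadjusted p under 0.05 limma gave 2, 2 and 1 members in these pairs, beside 4096, 1197 and 3640 of the 17322 tested probes. After adjustment 5.29%, 0.00577% and 3.69% of all probes were called. The tricyclic and the serotonin reuptake inhibitors were therefore not distinguished in these genes, nor shown to act alike, since the intervals reach 2.36 for Il1b.

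Marker genes of blood-derived cells also varied between rats. The summed level of 6 markers of monocytes and macrophages was 1.17 and 1.11 in Sham and 3.85, 4.06 and 3.88 in TBI. It was 9.67, 9.05 and 5.07 with TBI+Imipramine, 3.12, 3.42 and 7.01 with TBI+Prozac, and 1.08, 3.76 and 6.41 with TBI+Zoloft. The rats highest in Il1b and Il1rn, TBI+Imipramine replicates 1 and 2, were the highest in these markers. TBI+Zoloft replicate 1 had a marker sum as low as Sham, and its Il1b level was -4.19. The sum is weighted to the brightest markers. Cd163 and Msr1 were above background in all 3 TBI+Zoloft rats, this one included, and in neither Sham rat. In Sham, 4 of the 6 markers (Ccr2, Cd163, Msr1 and Mrc1) were not above background, and in TBI only Ccr2, the receptor of inflammatory monocytes, was above it on no array. In TBI vs. Sham 3 of the 4 tested markers were called higher, beside 8.3% of all probes. Of the tested markers, Cd163 and Msr1 entered the test only through injured groups. The summed level of 6 neutrophil markers ran from 0.116 to 0.139 in Sham and from 0.485 to 2.90 in injured rats, with Mmp8 above background on no array, and that of 6 microglial markers from 3.19 to 4.0 in Sham and from 3.69 to 6.63 in injured rats. The part of these cells, and of the choroid plexus tissue that was high in the same TBI+Imipramine rats, in the levels of the members was not tested.

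**Figure D4:**
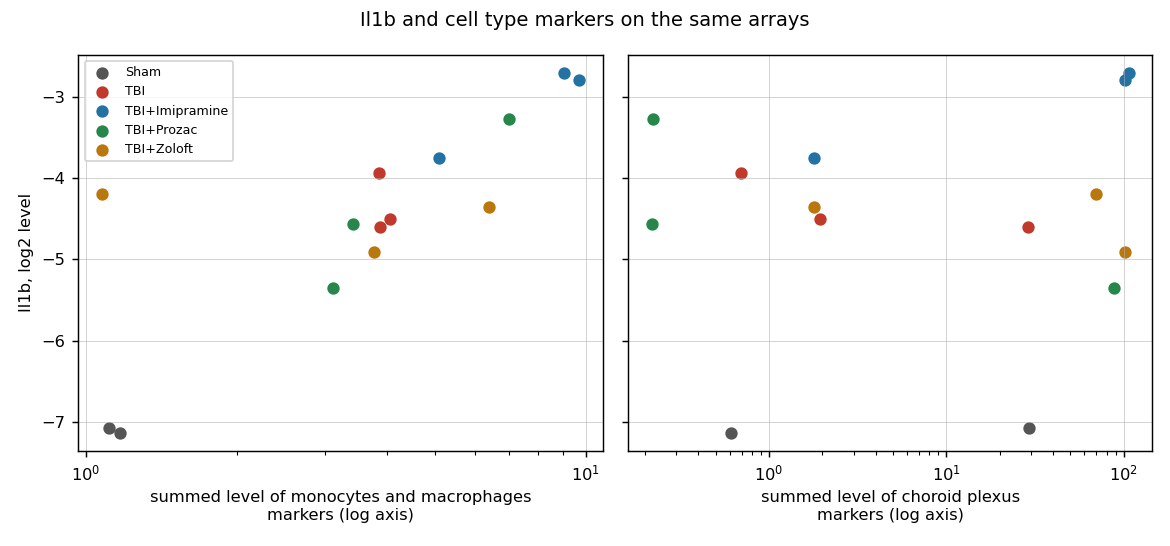
Il1b level (log2, y axis) of each of the 14 rats against the summed level of 6 monocyte and macrophage markers (left, log axis) and of 8 choroid plexus markers (right, log axis). TBI+Imipramine replicates 1 and 2 lie at the top right of both panels, and Sham at the bottom with marker sums of 1.11 to 1.17 on the left.

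The other genes of these pathways are described by 7 lists of 102 genes, of which 92 had a probe and 69 were tested. In TBI vs. Sham 26 were higher and 2 lower, 40.6% of those tested beside 16.6% of all probes, with a median difference of 0.49 beside 0.00 over all probes. Genes that entered the test only through injured groups are among them. The lists were also chosen with earlier results of these data known, so the higher share is a description and not a test. Without Sham replicate 1 the number called was 9, and without the 5 arrays high in choroid plexus markers it was 24.

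In the interleukin-1 family list 6 of 12 tested genes were higher in TBI and none lower. Il1r2, the decoy receptor that binds interleukin-1 without signalling, was above background in neither Sham rat and in all 3 TBI rats, at least 6.61-fold higher (limma adjusted p = 0.0052). The inflammasome genes Pycard (1.57 on the log2 scale, the adaptor ASC) and Casp1 (1.20, the protease that cleaves the interleukin-1β precursor) were higher, as was Il18bp (1.22), which encodes a secreted inhibitor of interleukin-18. Irak3 (0.96), an inhibitory kinase of the pathway, and its adaptor Myd88 (0.77) were also called.

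In the interleukin-6 family list, 7 of 14 genes were tested. The shared receptor chain Il6st (gp130) was 0.78 higher in TBI (limma adjusted p = 0.027). Il6r, the interleukin-6 receptor, differed by 0.06 (adjusted p = 0.83). In the JAK-STAT list 3 of 14 were higher, the phosphatase Ptpn6 (1.33), Stat5a (0.97) and the kinase Jak2 (0.74), and none lower.

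In the TNF signalling list 3 of 10 tested genes were higher and 1 lower. Birc3, an inhibitor of apoptosis induced by NF-kB, was higher in TBI, with neither Sham rat and 2 of 3 TBI rats above background. Its fold of 2.01 over the Sham arrays' lowest signal well above background is therefore no lower bound. Tnfrsf1b, the other TNF receptor, was 1.19 higher, with 1 of 2 Sham rats above background, and Adam17, the protease that sheds TNF and its receptors, 0.94 higher. Lta, a TNF-related ligand, was lower in TBI, above background in 1 of 2 Sham rats and no TBI rat (limma adjusted p = 0.013). Its fold of 1.68, formed in the same way, is likewise no lower bound. In the NF-kB list Bcl3 (2.87, 1 of 2 Sham rats above background) and the kinase Ikbkb (0.56) were higher among 8 tested, and the subunits Nfkb1 and Rela differed by 0.29 and 0.22 (adjusted p = 0.40 and 0.50).

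The lists of target genes had the highest medians. Among STAT3 target genes, 8 of 12 tested were higher in TBI, with a median of 1.30. The iron-binding protein gene Lcn2 was 7.06 ± 0.923 (SE) higher, the protease inhibitor gene Serpina3n 5.82 ± 1.11, the metalloproteinase inhibitor gene Timp1 5.04 ± 0.381 and Gfap, the astrocyte filament gene, 1.88 ± 0.446, all on the log2 scale and with limma adjusted p of 0.00059, 0.0049, 2.8e-05 and 0.014. Lcn2 was above background in 1 of 2 Sham rats, and its Sham levels varied widely (SD 2.97). Among NF-kB target genes, 3 of 6 tested were higher: the monocyte chemokine gene Ccl2 by 6.22 (1 of 2 Sham rats above background), the neutrophil chemokine gene Cxcl1 at least 8.70-fold (0 of 2 Sham rats) and the adhesion molecule gene Icam1 by 1.14. Many of these genes answer to several factors, and the lists say nothing of which one acted.

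**Figure D5:**
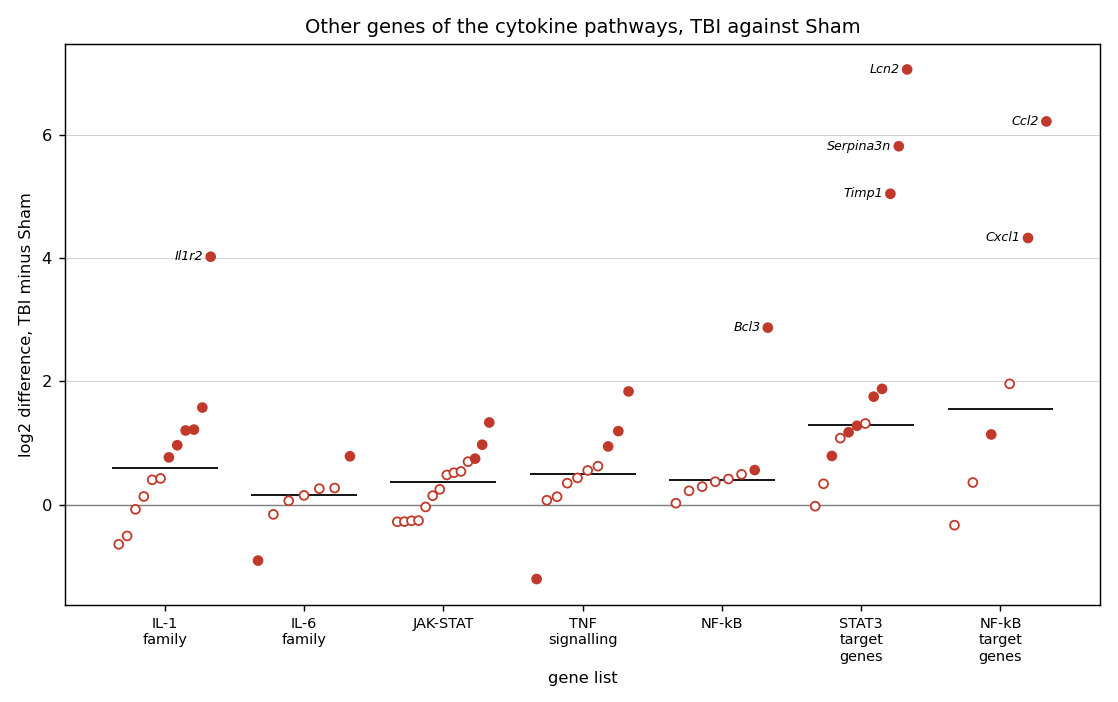
Log2 difference of TBI minus Sham (y axis) for the 69 tested genes of the 7 pathway lists (x axis), ordered by size within each list. Filled points passed an adjusted p of 0.05, open points did not, and lines are list medians, highest for the STAT3 (1.30) and NF-kB (1.55) target genes.

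Calls in these lists against TBI are read beside the shares of all probes called, 2.85%, 0.00577% and 1.38%. With TBI+Imipramine 1 of 69 genes, or 1.45%, was called (Lta, at least 1.53-fold higher than TBI, limma adjusted p = 0.044), with TBI+Prozac 0 and with TBI+Zoloft 1, or 1.45% (Cish, a STAT5-induced inhibitor of the pathway, 0.82 ± 0.156 (SE) higher, adjusted p = 0.032). Lta was above background in 0 TBI rats and in all 3 rats of each treated group. It entered the test only through the treated groups, so its call partly follows from the filter. Lta was at least 1.32-fold above TBI with TBI+Prozac and 1.56-fold with TBI+Zoloft, without a call there. The STAT3 target genes had median differences from TBI of 0.27, 0.08 and 0.17 for imipramine, Prozac and Zoloft, beside 0.20, 0.15 and 0.01 over all probes.

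Across the 12 injured rats, the genes whose log2 levels ran most nearly parallel to a member were named for the 4 members measured on every array. For Tnfrsf1a they were Myd88 (Pearson r = 0.963), Cd44 (0.954) and Tgif1 (0.949), and for Stat3 Smarca4 (0.949), Smim14 (0.911) and Slc25a28 (0.907). For Tnf they were Il4r (0.848), C1qc (0.822) and Ehd2 (0.811), and for Il18 Scly (0.979), Txndc9 (0.970) and Ebp (0.964). Each was the highest of all named probes' correlations over rats that share slides and cell makeup, and is given as a description.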

How the data were processed

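Total RNA of whole hippocampus was labelled and hybridised to 1-colour Agilent arrays. The authors deposited scanner output made with Feature Extraction 11.5.1.1, in which each spot has a background-subtracted intensity, not yet normalized between arrays, with flags for background, saturation and outliers. A table of normalized intensity was deposited too and used as an alternative. Micro-RNA arrays of the same rats were not used here. From the scanner intensity, control spots and outlier-flagged spots were left out, spots of a probe were averaged, and the values of an array were scaled to the 75th percentile of those above background there (over a share of 0.5 of a probe's spots), as the methods state, before log2. The 5 groups were fitted with limma 3.58.1 (R 4.3.3) in 1 model of 14 arrays, two-sided, with Benjamini-Hochberg adjustment over the 17322 tested probes and a threshold of 0.05. The number of rats limits the precision, and rats of a group were taken as separate animals from the labels. The fit was checked on simulated data.

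A probe's gene was taken from RefSeq by its accession, with 18643 of 30367 probes named. A list gene with several probes was represented by its brightest tested probe. All members, list genes by a rule (the 4 largest called differences up and 2 down without overlap in TBI vs. Sham) and the 3 most parallel genes were named, and other list genes were chosen after their values were seen. The members, lists and markers were chosen with earlier results of these data known. The scanner files used here hold no mean signal, so the normexp alternative started from median signals with an offset of 50. Other alternatives were other scalings, filters, slide and replicate blocks, the methods' own test and leaving out each rat. Those on the 5 arrays with a choroid plexus sum over 60, and on the pathway lists, were added after seeing the data. Some pathway list genes are counted in the totals and not reported here by name.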

Additional observations from a re-analysis of the deposited data

How the results depend on the processing

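No member's difference that passed the test changed sign under any alternative run. The number of members called in TBI vs. Sham (3) was 1 when only probes above background on all 14 arrays were tested, which drops Il1b, Il1rn and Socs3, and 0 by the methods' own test after adjustment. For TBI+Imipramine vs. Sham (5) it was 2 under each of these settings and 2 without the 5 arrays high in choroid plexus markers, a fit that assumes the lone TBI+Imipramine and TBI+Zoloft rats vary like the other groups. For TBI+Prozac vs. Sham (3) it was 1 with normexp, 1 with probes above background on all arrays and 0 by the methods' test, and for TBI+Zoloft vs. Sham (4) it was 2, 2 and 0, and 1 when only the 2 groups were fitted. The methods' test without adjustment (unadjusted p under 0.05 and over 1.2-fold) gave 1 member in each of TBI+Imipramine vs. TBI, TBI+Zoloft and TBI+Prozac, where limma gave 1, 2 and 2 at an unadjusted p under 0.05 and 0 after adjustment. Leaving out each rat in turn gave 3 to 4 called members in TBI vs. Sham, 3 to 6 in TBI+Imipramine vs. Sham, 1 to 3 in TBI+Prozac vs. Sham and 0 to 4 in TBI+Zoloft vs. Sham. For the treated groups the lowest counts came without Sham replicate 1, and in TBI+Imipramine vs. Sham also without TBI+Imipramine replicate 1. In TBI+Zoloft vs. Sham it was 1 without Sham replicate 2. It was 0 to 1 in TBI+Imipramine vs. TBI+Zoloft and 0 in the other 5 comparisons. Of single members' differences from any comparison, 52 alternatives lost a call, 13 gained one and 70 changed the sign of a difference that passed in neither, with the cause not tested.

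Of the pathway genes, 28 were called in TBI vs. Sham, 9 to 30 when a rat was left out (9 without Sham replicate 1) and 0 by the methods' test after adjustment. In TBI+Imipramine vs. TBI (1) the number was 0 under the other scalings, normexp, the authors' table, both other filters, the slide block, the 2-group fit, the adjusted methods' test and without the choroid plexus arrays, 3 with a random slide block, 8 by the unadjusted methods' test and 0 to 1 when a rat was left out. In TBI+Prozac vs. TBI (0) it was 3 by the unadjusted methods' test. In TBI+Zoloft vs. TBI (1) it was 3 with the percentile over all probes, 2 with quantile normalization, 3 with a random slide block, 4 by the unadjusted methods' test, 0 to 2 when a rat was left out, and 0 with normexp, both other filters, the slide block, the 2-group fit and the adjusted methods' test.

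Replicate numbers name separate rats and do not pair them: deviations of same-numbered rats correlated at -0.013 on average (-0.23 to 0.23). With the replicate number as a block, 3, 4, 3 and 3 members were called for untreated, imipramine, Prozac and Zoloft rats, in that order, vs. Sham, and 0 in every other comparison, and of the pathway genes 2 were called in TBI+Zoloft vs. TBI. Every member has 1 probe, so that averaging a gene's probes changes none of these values, and no within-slide value exists for TBI+Imipramine or TBI+Zoloft vs. TBI or for any comparison with Sham. Signal over background limits Il6, Lif and, in Sham, Il1b, Il1rn and Socs3.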

Other observations

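Il1a, the gene of the other interleukin-1 agonist, chosen here after its values were seen, is given by the brighter of its 2 probes, since the other was above background on no array. It was above background in both Sham rats (mean level -5.64 on the log2 scale), in 1 of 3 TBI rats and in none of the 9 treated rats. Sham was at least 1.93-fold above TBI+Imipramine, 1.90-fold above TBI+Prozac and 1.58-fold above TBI+Zoloft (limma adjusted p = 0.010, 0.021 and 0.0081). Il1a entered the test only through Sham, so these calls partly follow from the filter. TBI minus Sham was -0.65 (adjusted p = 0.16).

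Between treated groups, 4 of the 69 tested pathway genes (5.80%) were called in TBI+Imipramine vs. TBI+Zoloft and 3 (4.35%) in TBI+Prozac vs. TBI+Zoloft, close to the 5.29% and 3.69% of all probes. Among them, TBI+Imipramine was higher than TBI+Zoloft in Ccnd1 (1.23, limma adjusted p = 0.033), a cell cycle gene, and in Adam17 (0.64, 0.049). Nlrp3, the inflammasome sensor, was above background in all 3 TBI+Imipramine rats and 0 of 3 TBI+Zoloft rats, at least 1.35-fold higher (limma adjusted p = 0.043). Nlrp3 entered the test only through TBI+Imipramine, so its call partly follows from the filter. TBI+Prozac was higher than TBI+Zoloft in Il1rap (1.0, 0.045), the accessory chain of the interleukin-1 receptor, and in Ccnd1 (1.15, 0.046). The median of all probes differed by 0.18 and 0.11 in these comparisons, and none of the 69 tested genes passed between TBI+Imipramine and TBI+Prozac.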
